A study of Mus musculus with 30 samples.

Results

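Oligodendrocyte lineage and myelin genes were examined in the dorsal CA1 (dCA1) of mice that had been trained in object location memory (OLM). The set holds 35 genes of the 24883 rows of the expression table, chosen by symbol: 31 genes of myelin and of the mature oligodendrocyte, and 4 genes of its precursor cell (Pdgfra, Cspg4, Nkx2-2 and Gpr17), which are described apart. Each symbol has 1 row, and all 35 had a mean of at least 1 FPKM (fragment counts scaled to transcript length and to sequencing depth), the minimum for testing that 13184 rows passed. RNA from 30 libraries, 1 per mouse, was compared across 5 conditions of 6 mice each. All mice were male, wild-type C57BL/6J animals between 2 and 4 months old, and every library came from the dissected dorsal hippocampus of a hemisphere. VEH-HC mice received vehicle (the in vivo-jetPEI transfection reagent without plasmid) and stayed in the home cage with handling only. VEH-T10 mice received vehicle and 10 min of training, which is above the threshold for long-term memory, and VEH-T3 mice received vehicle and 3 min of training, which is below it. Y397F-T10 mice carried a plasmid for CREST, a subunit of the neuronal chromatin remodeler nBAF, with tyrosine 397 replaced by phenylalanine (labelled phospho-null), and were trained for 10 min. Y397D-T3 mice carried CREST with aspartic acid at that residue (labelled phospho-mimetic) and were trained for 3 min. The infusion was made 3 days before training, and tissue was taken 1 h after training. According to the paper, the OLM procedure also includes days of habituation to the chamber before training, which home-cage mice did not have. Habituation and training therefore cannot be told apart in comparisons with VEH-HC. No condition combined a mutant with the home cage, and transfection reaches only part of the cells around the infusion site, so mutant and native CREST were present together in these tissues. According to the paper, the plasmid placed CREST under a shortened promoter of the kinase gene CaMKII. Whether oligodendrocytes expressed the mutants was not measured here.

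Oligodendrocytes wrap axons of the central nervous system in myelin, a compacted membrane rich in galactolipids and cholesterol. They arise throughout life from precursor cells that carry the PDGF receptor Pdgfra and the proteoglycan Cspg4 (NG2). A precursor that starts to differentiate loses these receptors, passes through a short premyelinating stage marked by the receptor Gpr17 and by Bcas1, and then turns on the myelin genes under Sox10, Olig1, Olig2, Nkx6-2 and Myrf. In the hippocampus, myelin lies mainly in the alveus, the fimbria, the stratum lacunosum-moleculare and the overlying corpus callosum, so a dissection of CA1 can hold more or less of it.

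The tissue carried the markers of a mixed hippocampal sample. Summed FPKM of 6 neuronal markers lay between 2527 and 3188 in the 30 libraries, of 7 astrocyte markers between 901 and 2076, and of 7 microglial markers between 191 and 872. The 7 choroid plexus markers were the most uneven, with a median sum of 3163 FPKM in VEH-HC and 1961 FPKM in VEH-T3 against 125 FPKM in Y397D-T3, 102 FPKM in VEH-T10 and 56.1 FPKM in Y397F-T10. FPKM keeps no read totals. Relative depth, read from the step that 1 fragment leaves in 2642 rows of low FPKM, ran from 0.811 to 1.24 of the median library and had a Pearson r of 0.01 (n = 30) with the mean level of the 31 myelin genes. In bulk RNA, fewer oligodendrocytes and less RNA per oligodendrocyte cannot be told apart.

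The mean level over the 30 libraries spanned 2.21 to 1194 FPKM among the 35 genes, a unit that is per length, so genes can be ranked on it. Mbp, myelin basic protein, which compacts the cytoplasmic faces of the membrane, was the highest of the 35 genes, with a mean of 1194 FPKM over the 30 libraries. The iron carrier Trf followed with 250 FPKM and Cnp, an enzyme of the non-compact myelin, with 193 FPKM. Mog, a glycoprotein of the outermost myelin surface, averaged 52.1 FPKM, Mag, the adhesion molecule that faces the axon, 98.3 FPKM, Mobp 92.2 FPKM, Mal 105.6 FPKM and the tight junction protein Cldn11 156 FPKM. The remaining sheath and surface genes (Opalin, Ermn, Gjc3, Gpr37, Hapln2, Plekhh1, Pllp, Tspan2, Tmem125, Ppp1r14a, Cntn2 and Bcas1) averaged between 4.98 FPKM for Plekhh1 and 59.1 FPKM for Ppp1r14a. Among the enzymes, the galactolipid pathway was present throughout, with 19.8 FPKM for Ugt8a, which makes galactosylceramide, 22.7 FPKM for Fa2h, which hydroxylates its fatty acid, and 8.70 FPKM for Gal3st1, which makes sulfatide from it. Aspa averaged 10.4 FPKM, Qdpr 153 FPKM and Enpp6, a choline phosphodiesterase of newly forming oligodendrocytes, 2.21 FPKM. Olig1 (80.9 FPKM) was the most abundant lineage transcription factor, ahead of Sox10 (23.2 FPKM), Olig2 (15.0 FPKM), Nkx6-2 (13.4 FPKM) and Myrf (12.9 FPKM). The precursor genes averaged 18.9 FPKM for Gpr17, 7.75 FPKM for Pdgfra, 3.48 FPKM for Nkx2-2 and 3.18 FPKM for Cspg4.

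Variation from mouse to mouse was the main feature of these genes. Mbp had a lowest, median and highest level of 951, 1040 and 1111 FPKM in VEH-HC, and of 713, 1411 and 2230 FPKM in VEH-T3. It ran through 844, 1185 and 1907 FPKM in Y397D-T3, 642, 1302 and 1551 FPKM in VEH-T10, and 628, 1077 and 1298 FPKM in Y397F-T10. The 6 home-cage mice were thus close together, and each trained condition held mice both below and above all of them. Mog ran through 50.5, 55.5 and 59.0 FPKM in VEH-HC. After 3 min of training it ran through 28.3, 60.3 and 91.1 FPKM with vehicle and 31.3, 48.4 and 67.1 FPKM with Y397D. After 10 min it ran through 29.0, 54.8 and 71.0 FPKM with vehicle and 25.8, 51.9 and 55.3 FPKM with Y397F. For Mog, too, the home-cage values fell inside the range of VEH-T10, VEH-T3 and Y397D-T3, while in Y397F-T10 the highest mouse lay below the home-cage median.

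**Figure D1:**
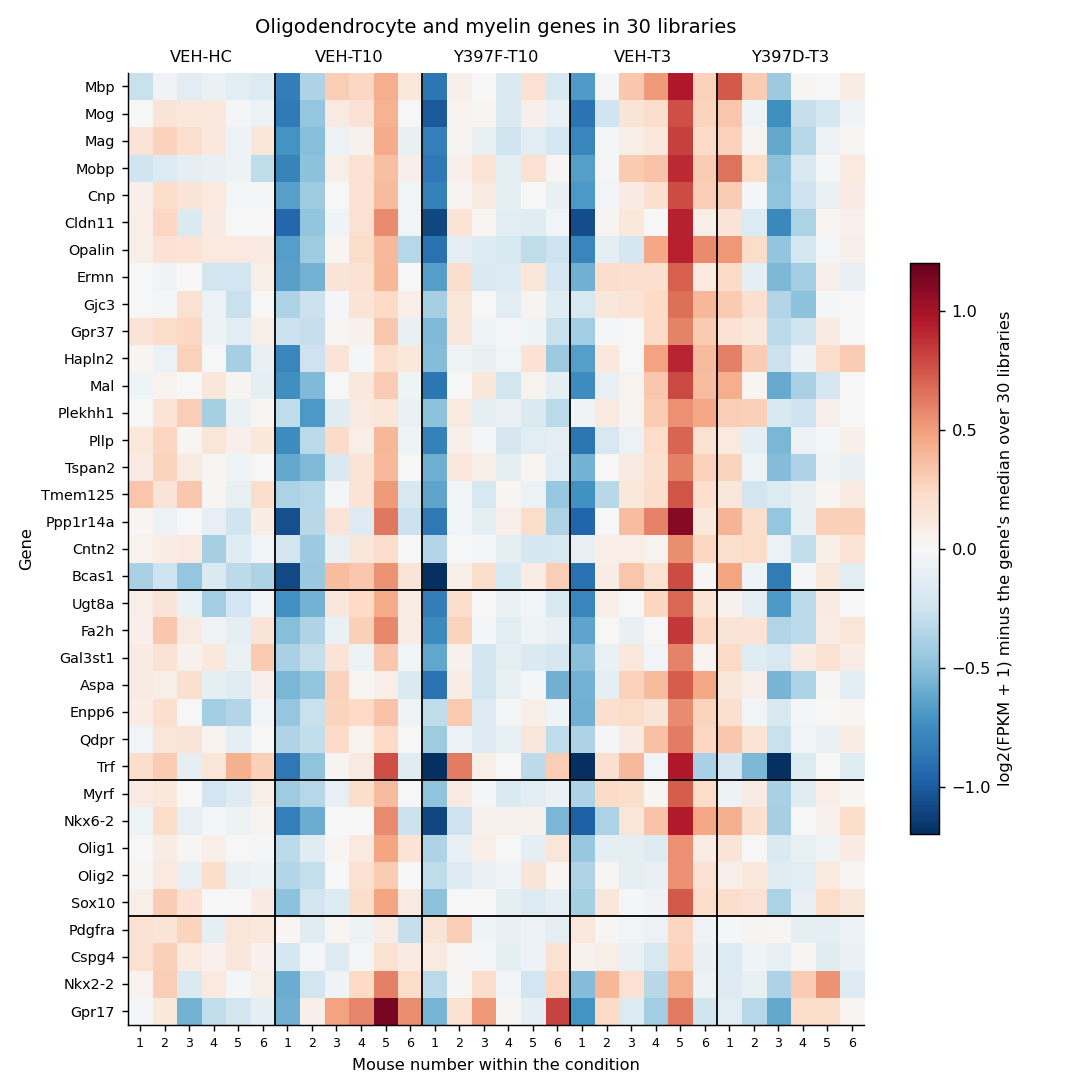
Level of each of the 35 genes (rows, grouped as sheath and surface proteins, enzymes and transferrin, lineage transcription factors, and precursor genes) in each of the 30 libraries (columns, by condition and mouse number), as log2(FPKM + 1) minus the gene's median over the 30 libraries, with the colour scale ending at 1.2 on either side. The 31 myelin and mature genes shift together within a mouse, low in mouse 1 of VEH-T10, Y397F-T10 and VEH-T3 and high in mouse 5 of VEH-T10 and VEH-T3. Pdgfra and Cspg4 vary over a narrower range and are also highest in mouse 5 of those 2 conditions.

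The mice that stood apart were the same across the gene set. Within VEH-T10, mouse 1 was the lowest of the 6 for 28 of the 31 myelin genes and mouse 5 the highest for 30. Within VEH-T3, mouse 1 was the lowest and mouse 5 the highest for all 31, within Y397F-T10 mouse 1 was the lowest for all 31, and within Y397D-T3 mouse 3 was the lowest for 27. In VEH-HC no mouse held the lowest value for more than 14 or the highest for more than 15. On the log2(FPKM + 1) scale, the mean of the 31 genes per mouse had an SD of 0.08 in VEH-HC, 0.45 in VEH-T3, 0.25 in Y397D-T3, 0.37 in VEH-T10 and 0.29 in Y397F-T10 (n = 6 each). The median SD of a single myelin gene was 0.12 in VEH-HC, beside 0.11 over all 13184 rows, and 0.48 in VEH-T3, beside 0.15 over all rows. In VEH-T10, 6.95% of all rows had a larger SD than the median myelin gene, in VEH-T3 7.42%, in Y397D-T3 9.25%, in Y397F-T10 15.2% and in VEH-HC 42.0%. Only a median of 11.99% of a myelin gene's sum of squares lay between the conditions, against 17.6% for all rows, and the rest lay between mice of a condition.

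**Figure D2:**
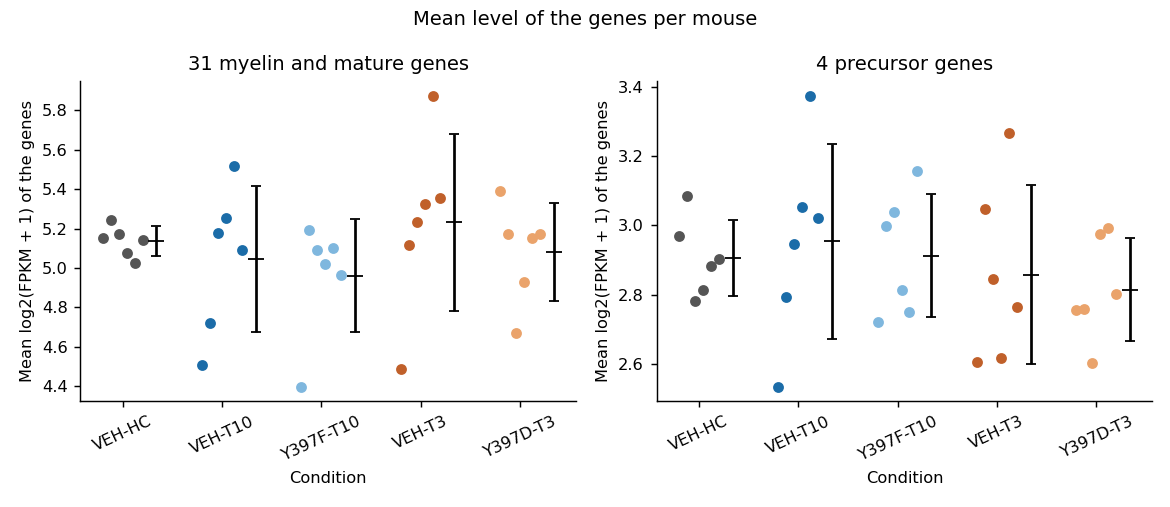
Mean log2(FPKM + 1) of the 31 myelin and mature genes (left) and of the 4 precursor genes (right) in each mouse, by condition, with points offset by mouse number and bars giving the mean and SD of the 6 mice. The myelin means of VEH-HC mice lie between 5.03 and 5.25, and those of VEH-T3 mice between 4.49 and 5.87.

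Because the genes moved together, they were set against each other. Across the 30 libraries, log2(FPKM + 1) of Mbp and Mog had a Pearson r of 0.90 and a Spearman rho of 0.79, each with p = 1e-05 in 100000 permutations, the smallest they can give, and adjusted p = 1e-05 over 4 relations. Without the 2 libraries farthest from the Mbp median (VEH-T3 mouse 5 and Y397F-T10 mouse 1) r was 0.85. With condition means removed r was 0.98 and rho 0.91 (both p = 1e-05, adjusted p = 1e-05), and r was 0.97 without the 2 farthest libraries. The 4 relations are r and rho of this pair, with and without condition means. Both genes are markers of the same cell type, so these p values add little to the description. As a description, each of the 31 myelin genes was correlated with the mean of the other 30 over the 30 libraries, which share tissue, protocol and the scaling of FPKM. The values ran from 0.75 for Plekhh1 and 0.76 for Cntn2 to 0.97 for Mag and 0.98 for Cnp, with a median of 0.91, and 28 of the 31 were above 0.8. Plekhh1, Cntn2 (an axonal adhesion molecule that neurons also make) and Trf (0.78), which the choroid plexus also makes, followed least closely. The lineage factors were within the same range, at 0.90 for Myrf, 0.93 for Nkx6-2, 0.91 for Sox10, 0.84 for Olig2 and 0.83 for Olig1. The precursor genes stood below, at 0.13 for Pdgfra, 0.20 for Cspg4, 0.53 for Gpr17 and 0.61 for Nkx2-2.

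The upstream sequence of 3 members shows which letters lie before genes that followed the myelin mean closely and before one with a low correlation with it. Promoters in RefSeq (GRCm38.p6) were matched for 27 of the 35 genes. The 6-base core that SOX proteins bind, searched as ACAAAG and ACAATG on both strands (these letters do not overlap each other), was present in the 250 bases upstream of the start in 9 of the 24 matched myelin genes (37.5%) and in 0 of the 3 matched precursor genes. It was present in 25.5% of all 27025 promoters in the table and in 16.7% of the 9975 with a tested row. The 250 bases before Mog (chr17:37023399-37023648, minus strand) hold no match. Those before Opalin, a sialoglycoprotein of the oligodendrocyte (chr19:41077114-41077363, minus strand), hold 1 match, given in capitals. Those before the matched start of Pdgfra (chr5:75152001-75152250, plus strand) hold none. The Pdgfra stretch lies inside the annotated span of the gene (chr5:75151322-75198206), so it does not precede the outermost start, unlike those of Mog and Opalin.
Mog: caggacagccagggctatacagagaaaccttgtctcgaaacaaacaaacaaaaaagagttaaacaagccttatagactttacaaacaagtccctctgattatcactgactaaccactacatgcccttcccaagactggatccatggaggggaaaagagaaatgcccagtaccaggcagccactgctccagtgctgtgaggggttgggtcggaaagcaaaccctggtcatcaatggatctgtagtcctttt
Opalin: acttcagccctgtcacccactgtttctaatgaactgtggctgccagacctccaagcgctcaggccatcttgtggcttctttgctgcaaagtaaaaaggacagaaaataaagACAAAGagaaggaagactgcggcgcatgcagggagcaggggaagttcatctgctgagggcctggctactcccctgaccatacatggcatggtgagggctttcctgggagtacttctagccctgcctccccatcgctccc
Pdgfra: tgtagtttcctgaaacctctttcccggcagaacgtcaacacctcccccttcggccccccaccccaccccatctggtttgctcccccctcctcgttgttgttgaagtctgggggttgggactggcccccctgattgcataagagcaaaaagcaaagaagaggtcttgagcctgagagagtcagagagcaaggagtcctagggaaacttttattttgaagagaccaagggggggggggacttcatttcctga

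The trained conditions, taken 1 h after training and also habituated to the chamber, were compared with the home cage. With 1 variance per gene from all 30 libraries in limma, 0 of the 35 genes passed an adjusted p of 0.05 in any of the comparisons with VEH-HC. The share of all 13184 rows that passed was 5.17% for VEH-T3 (681 rows), 7.07% for Y397D-T3 (932 rows), 0.819% for VEH-T10 (108 rows) and 1.13% for Y397F-T10 (149 rows). At an unadjusted p under 0.05 the number of the 35 genes was 0 for VEH-T3, 2 for Y397D-T3, 3 for VEH-T10 and 3 for Y397F-T10, and the number of all rows 2845, 3287, 1964 and 2232. The median log2 fold change of the 31 myelin genes was 0.09 in VEH-T3, -0.07 in Y397D-T3, -0.12 in VEH-T10 and -0.18 in Y397F-T10, beside medians of -0.04, -0.03, -0.03 and -0.04 over all rows. These medians turned on single mice. The first was -0.06 without mouse 5 of VEH-T3 and 0.22 without its mouse 1. The next was 0.003 without mouse 3 of Y397D-T3, the VEH-T10 median was -0.003 without its mouse 1, and the Y397F-T10 median was -0.08 without its mouse 1. In each of these fits, 0 of the 35 genes passed.

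Sheath and surface genes, 19 in number, counted 3 with a positive and 16 with a negative log2 fold change in VEH-T10. The numbers were 14 and 5 in VEH-T3, 7 and 12 in Y397D-T3, and 2 and 17 in Y397F-T10. For Mbp the log2 fold change was 0.37 ± 0.23 (SE) in VEH-T3 (adjusted p = 0.358), 0.26 ± 0.23 in Y397D-T3 (adjusted p = 0.499), 0.12 ± 0.23 in VEH-T10 (adjusted p = 0.857) and -0.03 ± 0.23 in Y397F-T10 (adjusted p = 0.970). For Mog it was -0.01 ± 0.22 (adjusted p = 0.991), -0.22 ± 0.22 (adjusted p = 0.571), -0.16 ± 0.22 (adjusted p = 0.798) and -0.24 ± 0.22 (adjusted p = 0.623) in the same order. The 95% interval of Mbp in VEH-T3 ran from -0.09 to 0.83, so a change of that size was not detectable with this spread. The lowest unadjusted p values among these genes in VEH-T3 belonged to Gjc3, a connexin of oligodendrocytes (log2 fold change 0.26 ± 0.13, adjusted p = 0.260), and to Cntn2 (0.21 ± 0.11, adjusted p = 0.286). In Y397F-T10 they belonged to Tmem125 (-0.38 ± 0.17, adjusted p = 0.253) and Opalin (-0.44 ± 0.21, adjusted p = 0.290). Opalin is among the genes that mouse 1 of Y397F-T10 pulled down: its level there was 21.6 FPKM, and the other 5 mice lay between 33.0 and 38.1 FPKM. All 6 home-cage mice were higher, between 43.1 and 46.4 FPKM.

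**Figure D3:**
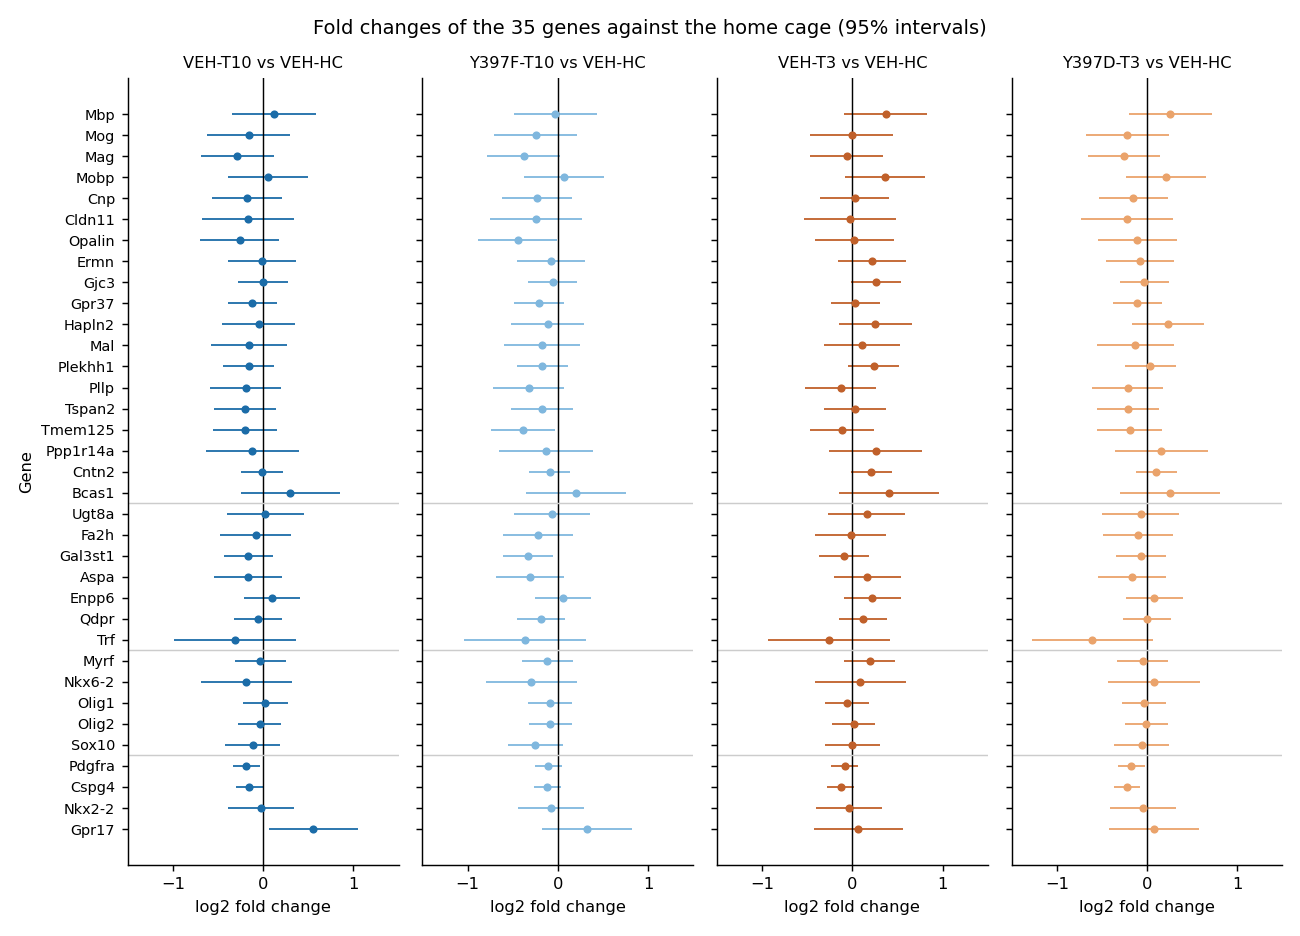
Log2 fold change of each of the 35 genes (rows) against VEH-HC in the 4 trained conditions (panels), from limma on log2(FPKM + 1), with points for the estimate and lines for the 95% interval. Of the 31 myelin genes, 28 have a negative estimate in Y397F-T10, 25 in VEH-T10, 22 in Y397D-T3 and 10 in VEH-T3, with wide intervals, and Gpr17 in VEH-T10 and Cspg4 in Y397D-T3 lie away from it without passing the adjusted threshold.

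The 7 enzymes and transferrin were similar in spread. Gal3st1, the sulfotransferase of sulfatide synthesis, had the smallest unadjusted p of all 35 genes in Y397F-T10, with a log2 fold change of -0.33 ± 0.13 (adjusted p = 0.212). Its lowest, median and highest levels were 8.15, 9.43 and 11.0 FPKM in VEH-HC and 5.28, 7.49 and 9.02 FPKM in Y397F-T10, and the groups overlapped. Trf ran through 231, 296 and 336 FPKM in VEH-HC and through 100.3, 219 and 250 FPKM in Y397D-T3, so that all 6 of the latter lay below the home-cage median, with overlap. The log2 fold change was -0.61 ± 0.33 (adjusted p = 0.253) with the spread of all 30 libraries. With the spread of the 12 libraries alone, Trf passed (adjusted p = 0.0447), in a fit where 14% of all rows passed (1845 of 13184). Over the 30 libraries, Trf had an r of 0.45 and a rho of 0.51 with the mean of the 7 choroid plexus markers, against 0.12 and 0.16 for Mbp, and an r of 0.42 after its line on the mean of the 31 myelin genes was subtracted. This relation was not particular to Trf. The values were 0.40, 0.51 and 0.35 for Tmem125, 0.37, 0.48 and 0.33 for Aspa, and 0.38, 0.30 and 0.35 for Pdgfra. Among the 35 genes r ran from -0.12 for Gpr17 to the 0.45 of Trf. Choroid plexus sums were lower in Y397D-T3 than in VEH-HC at the median, with overlap between the mice, and their part in the difference of Trf was not tested.

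None of the 5 lineage transcription factors passed. Olig2, which specifies the lineage, had medians of 14.7 FPKM in VEH-HC, 14.5 FPKM in VEH-T3, 15.4 FPKM in Y397D-T3, 15.0 FPKM in VEH-T10 and 14.3 FPKM in Y397F-T10. Sox10, which drives myelin gene transcription, had medians of 23.8, 23.5, 25.2, 22.2 and 20.8 FPKM in the same order. The log2 fold changes in Y397F-T10 were -0.29 ± 0.25 for Nkx6-2, -0.25 ± 0.15 for Sox10, -0.11 ± 0.14 for Myrf, -0.09 ± 0.12 for Olig1 and -0.08 ± 0.12 for Olig2. Of these 5 genes, the lowest adjusted p was 0.469 in VEH-T3, 0.844 in Y397D-T3, 0.774 in VEH-T10 and 0.407 in Y397F-T10.

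Of the precursor genes, Pdgfra and Cspg4 varied little from mouse to mouse, and Gpr17 varied about as widely as Mbp, from 10.3 to 40.0 FPKM over the 30 libraries against 628 to 2230 FPKM for Mbp. Pdgfra, the receptor that keeps precursors dividing, ran through 6.99, 8.55 and 9.35 FPKM in VEH-HC, 7.21, 7.54 and 9.27 FPKM in VEH-T3, 6.91, 7.36 and 7.80 FPKM in Y397D-T3, 6.09, 7.48 and 8.15 FPKM in VEH-T10, and 7.00, 7.26 and 9.57 FPKM in Y397F-T10. All 6 mice of VEH-T10 and all 6 of Y397D-T3 were below the home-cage median, with overlap in both. The log2 fold change was -0.09 ± 0.07 in VEH-T3 (adjusted p = 0.544), -0.18 ± 0.07 in Y397D-T3 (adjusted p = 0.135), -0.19 ± 0.07 in VEH-T10 (adjusted p = 0.210) and -0.11 ± 0.07 in Y397F-T10 (adjusted p = 0.485). Cspg4, the NG2 proteoglycan, ran through 3.27, 3.51 and 4.03 FPKM in VEH-HC and 2.69, 2.89 and 3.16 FPKM in Y397D-T3, with no overlap. Its log2 fold change there was -0.22 ± 0.07, and its adjusted p of 0.0571 missed the threshold with all 30 libraries and passed with the 12 libraries alone (adjusted p = 0.0221). The other 3 conditions had log2 fold changes of Cspg4 between -0.15 and -0.12 (adjusted p from 0.297 to 0.426), with 1 of 6 mice above the home-cage median in each. Nkx2-2, a transcription factor of precursors and early oligodendrocytes, had log2 fold changes between -0.07 and -0.02 in the 4 conditions, with adjusted p from 0.879 to 0.974.

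Gpr17, the receptor of premyelinating cells, showed the largest positive estimate. It ran through 11.5, 15.6 and 19.3 FPKM in VEH-HC and through 11.5, 25.6 and 40.0 FPKM in VEH-T10, where 4 of 6 mice were above every home-cage mouse and 1 was below all of them. The levels were 11.7, 18.9 and 31.6 FPKM in Y397F-T10, 11.2, 16.9 and 20.7 FPKM in Y397D-T3, and 10.3, 15.2 and 27.6 FPKM in VEH-T3, all overlapping VEH-HC. The log2 fold change was 0.56 ± 0.24 in VEH-T10 (adjusted p = 0.271), 0.07 ± 0.24 in VEH-T3 (adjusted p = 0.915), 0.32 ± 0.24 in Y397F-T10 (adjusted p = 0.528) and 0.08 ± 0.24 in Y397D-T3 (adjusted p = 0.874). Mouse 1 of VEH-T10, the low mouse for Gpr17, was also the low mouse for the myelin genes.

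**Figure D4:**
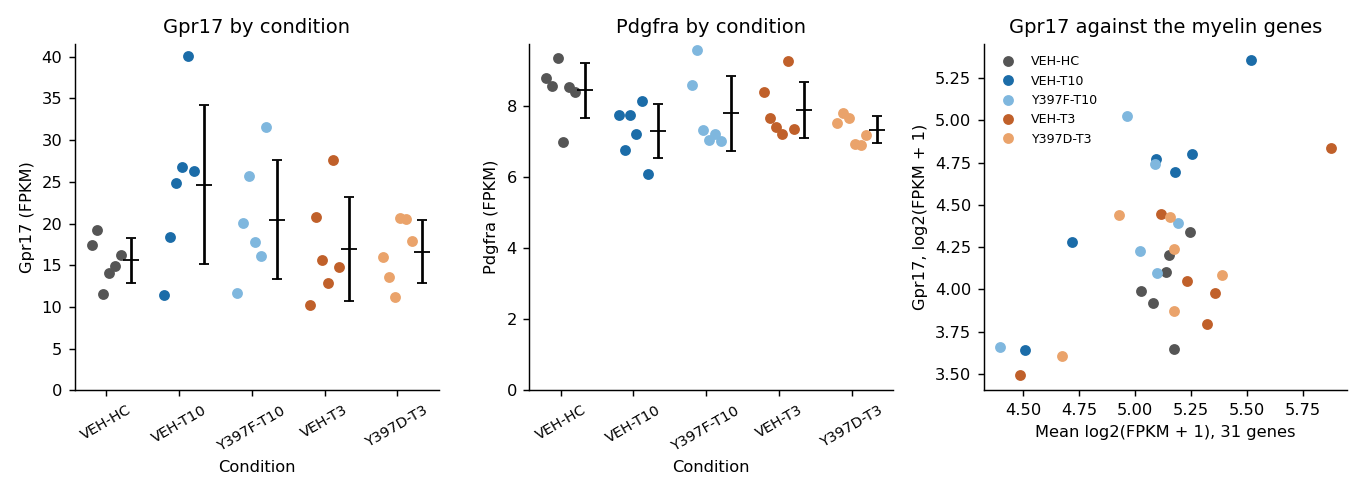
Gpr17 (left) and Pdgfra (middle) in FPKM by condition, with points offset by mouse number and bars giving the mean and SD of the 6 mice, and Gpr17 on the log2(FPKM + 1) scale against the mean of the 31 myelin and mature genes (right). Of the VEH-T10 mice, 4 of 6 lie above every VEH-HC mouse in Gpr17, and Pdgfra stays between 6.09 and 9.57 FPKM in all 30 mice.

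The mutants were compared with the vehicle condition of the same training, and the training times with each other. Vehicle held no plasmid, and no condition received wild-type CREST. Effects of the plasmid and its expression thus cannot be told apart from those of the point mutation. In Y397F-T10 against VEH-T10, 0 of the 35 genes and 0% of all rows passed, while 0 of the 35 and 498 of all rows had an unadjusted p under 0.05. The smallest unadjusted p belonged to Gal3st1 (log2 fold change -0.16 ± 0.13, adjusted p = 1.00), followed by Pdgfra (0.08 ± 0.07, adjusted p = 1.00) and Tmem125 (-0.19 ± 0.17, adjusted p = 1.00). Mbp differed by -0.15 ± 0.23 and Mog by -0.09 ± 0.22 on the log2 scale. In Y397D-T3 against VEH-T3, 0 of the 35 genes and 0.00758% of all rows (1 row) passed, and 1 of the 35 and 1037 of all rows had an unadjusted p under 0.05. Gjc3 (-0.29 ± 0.13, adjusted p = 0.619), Aspa, which splits N-acetylaspartate (-0.34 ± 0.18, adjusted p = 0.662), and Myrf, the factor that turns on myelin genes (-0.24 ± 0.14, adjusted p = 0.690), came first there, and Mbp differed by -0.11 ± 0.23 and Mog by -0.21 ± 0.22. In this comparison 29 of the 31 myelin genes had a negative estimate with a median of -0.14, which was -0.02 without mouse 5 of VEH-T3 and -0.31 without its mouse 1. In VEH-T10 against VEH-T3, 0 of the 35 genes and 0.0455% of all rows (6 rows) passed, and 1 of the 35 and 1075 of all rows had an unadjusted p under 0.05. Plekhh1 (-0.40 ± 0.14, adjusted p = 0.463), Gpr17 (0.49 ± 0.24, adjusted p = 0.616) and Cntn2 (-0.22 ± 0.11, adjusted p = 0.630) had the smallest p values, and Mbp differed by -0.25 ± 0.23 and Mog by -0.15 ± 0.22. All 19 sheath and surface genes had a negative estimate against VEH-T3, with a median over the 31 myelin genes of -0.20 that was -0.07 without mouse 5 of VEH-T3 and -0.34 without its mouse 1.

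Since most of the spread was shared, the fit was repeated with the mean of 24 other mature oligodendrocyte genes (among them Car2, Gjb1, Lpar1 and Evi2a, none of them a member) as a covariate. This fit was added after the values had been seen, and it asks how far a gene lies from the level that other oligodendrocyte genes give for the same mouse. More rows of the whole table passed in it as well. In VEH-T3, 2 of the 35 genes (5.71%) passed beside 9.22% of all rows, in Y397D-T3 4 (11.4%) beside 12.2%, in VEH-T10 2 (5.71%) beside 5.04% and in Y397F-T10 4 (11.4%) beside 5.66%, so in 3 of these 4 comparisons the share of the genes was near or below that of all rows. In Y397F-T10 against VEH-T10 it was 0 beside 0%, in Y397D-T3 against VEH-T3 0 beside 0.00758%, and in VEH-T10 against VEH-T3 1 beside 0.137%. With the trend on transcript length and GC content removed as well, over 12686 rows, the count was 2 beside 5.08% in VEH-T3, 6 beside 12.6% in Y397D-T3, 2 beside 3.2% in VEH-T10, 1 beside 2.9% in Y397F-T10 and 1 beside 0.0473% in VEH-T10 against VEH-T3.

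Gpr17 and Bcas1 were the genes that passed as above the shared level in more than 1 trained condition. Relative to it, Gpr17 rose in VEH-T10 by 0.66 ± 0.14 on the log2 scale (adjusted p = 0.00930), and it passed in all 12 fits that each left out 1 mouse of the pair, with a largest adjusted p of 0.0312. In Y397F-T10 it rose by 0.52 ± 0.15 (adjusted p = 0.0336), in 7 of the 12 such fits, and it lost the call without mouse 3, 4 or 6 of VEH-HC or mouse 3 or 6 of Y397F-T10. With the length and GC trend removed as well, the call in Y397F-T10 ended (0.47 ± 0.14, adjusted p = 0.0664). In VEH-T3 the value was -0.03 ± 0.14 (adjusted p = 0.919) and in Y397D-T3 0.21 ± 0.14 (adjusted p = 0.351). The direct difference between VEH-T10 and VEH-T3 was 0.69 ± 0.15 (adjusted p = 0.0470), which 3 of 12 fits kept, those without VEH-T10 mouse 1 or VEH-T3 mouse 2 or 5. The direct difference between Y397F-T10 and VEH-T10 was -0.14 ± 0.14 (adjusted p = 0.968). Bcas1, which also marks newly formed oligodendrocytes, rose relative to the shared level by 0.43 ± 0.11 in VEH-T10 (adjusted p = 0.0304, kept in 5 of 12 fits, lost without mouse 1, 2, 3 or 6 of VEH-HC or mouse 3, 4 or 6 of VEH-T10). It rose by 0.44 ± 0.12 in Y397F-T10 (adjusted p = 0.0234, kept in 8 of 12, lost without mouse 2 of VEH-HC or mouse 3, 5 or 6 of Y397F-T10) and by 0.42 ± 0.12 in Y397D-T3 (adjusted p = 0.0191, kept in 12 of 12). In VEH-T3 Bcas1 did not pass, and with the length and GC trend removed as well its value there was 0.27 ± 0.11 (adjusted p = 0.151). Enpp6, the enzyme of newly forming cells, had values between 0.16 and 0.19 in the 4 conditions with adjusted p from 0.156 to 0.244. Across the 30 libraries with condition means removed, Gpr17 had an r of 0.91 with Nkx2-2 and 0.82 with Bcas1, and of -0.07 with Pdgfra, as a description.

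The other members that passed relative to the shared level were sheath genes, transferrin and an enzyme. Mbp rose by 0.39 ± 0.10 in Y397D-T3 (adjusted p = 0.0154, kept in 12 of 12 fits), and Mobp, whose mRNA like that of Mbp is carried into the myelin sheath, by 0.34 ± 0.10 (adjusted p = 0.0248, kept in 7 of 12, lost without mouse 1, 2 or 6 of VEH-HC or mouse 1 or 2 of Y397D-T3). Trf fell by 0.40 ± 0.12 in Y397D-T3 (adjusted p = 0.0281, kept in 6 of 12, lost without mouse 4 or 5 of VEH-HC or mouse 1, 2, 3 or 6 of Y397D-T3) and by 0.41 ± 0.12 in VEH-T3 (adjusted p = 0.0318, kept in 8 of 12, lost without mouse 4 or 5 of VEH-HC or mouse 1 or 6 of VEH-T3), with the choroid plexus values given above. Pllp, a proteolipid of myelin, fell by 0.22 ± 0.06 in VEH-T3 (adjusted p = 0.0257, kept in 8 of 12, lost without mouse 4 of VEH-HC or mouse 1, 2 or 3 of VEH-T3). Gal3st1 fell by 0.21 ± 0.06 in Y397F-T10 (adjusted p = 0.0280, kept in 8 of 12, lost without mouse 4 or 6 of VEH-HC or mouse 3 or 6 of Y397F-T10). Neither of these calls held with the trend removed (Pllp -0.18, adjusted p = 0.0655, and Gal3st1 -0.15, adjusted p = 0.126). Mag fell in Y397F-T10 by 0.20 ± 0.06 (adjusted p = 0.0491) and kept the call only without mouse 5 of VEH-HC or mouse 1 or 5 of Y397F-T10, and it lost the call with the trend removed (-0.17, adjusted p = 0.0942). No lineage transcription factor passed in any of the 7 comparisons of this fit.

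The place of Mbp within the myelin set could also be read inside each library, with no covariate, as its ratio to Mog. This pair was chosen after the values had been seen, so its differences from VEH-HC are given as a description, with no test. It ran through 17.8, 18.8 and 20.2 in VEH-HC, 21.7, 24.8 and 26.6 in VEH-T3, 23.7, 26.7 and 28.4 in Y397D-T3, 21.9, 22.9 and 24.7 in VEH-T10, and 20.0, 21.8 and 24.3 in Y397F-T10. No mouse of VEH-T10, VEH-T3 or Y397D-T3 reached down to the highest home-cage mouse, and 1 mouse of Y397F-T10 did. The ratio was 1.22-fold that of VEH-HC in VEH-T10, 1.30-fold in VEH-T3, 1.40-fold in Y397D-T3 and 1.17-fold in Y397F-T10. The comparisons share the home-cage mice, and in the home cage the ratio itself was narrow. Mbp was not alone in this. Of the 34 members other than Mog, the ratio to Mog was above all home-cage mice in every mouse for 3 in VEH-T10 (Mbp, Bcas1 and Gpr17), 3 in VEH-T3 (Mbp, Bcas1 and Mobp), 5 in Y397D-T3 (Mbp, Bcas1, Mobp, Hapln2 and Nkx6-2) and 2 in Y397F-T10 (Bcas1 and Mobp), and it was below them for 0. Over all 13183 other tested rows the share was 0.167% in VEH-T10, 0.0455% in VEH-T3, 1.08% in Y397D-T3 and 1.3% in Y397F-T10. A row that does not vary with Mog carries the spread of Mog in this ratio, so these shares are no measure of how unusual Mbp was among oligodendrocyte genes. Bcas1 over Mog was at most 0.748 in VEH-HC and at least 0.772 in VEH-T3 and 0.857 in Y397D-T3. Mobp over Mog was at most 1.67 in VEH-HC and at least 1.76 in VEH-T3 and 1.83 in Y397D-T3. Between Y397D-T3 and VEH-T3 the ratio of Mbp to Mog differed by 0.10 on the log2 scale (2-sided exact permutation p = 0.0996, adjusted p = 0.116 over 7 comparisons), between Y397F-T10 and VEH-T10 by -0.06 (exact permutation p = 0.247, adjusted p = 0.247) and between VEH-T10 and VEH-T3 by -0.09 (exact permutation p = 0.0823, adjusted p = 0.115). The choice of the pair after its values had been seen bears on these 3 tests as well. The 7 comparisons include those with VEH-HC, whose smaller p values lower the adjusted values of Y397D-T3 against VEH-T3 and of VEH-T10 against VEH-T3. The adjusted value of Y397F-T10 against VEH-T10, the largest of the 7, equals its unadjusted p. The ratio of 2 genes shows that they moved unequally and not which of them moved. With Cnp in place of Mog the ratio of Mbp was 1.27-fold, 1.33-fold, 1.23-fold and 1.15-fold that of VEH-HC in VEH-T3, Y397D-T3, VEH-T10 and Y397F-T10, and with Mag 1.35-fold, 1.43-fold, 1.33-fold and 1.28-fold. The separation from every home-cage mouse held with both references in VEH-T3 and Y397D-T3 and with neither in VEH-T10. In VEH-T10 the lowest ratio was 5.30 with Cnp, against a highest of 5.54 in VEH-HC, and 10.7 with Mag, against 10.9. Y397F-T10 overlapped VEH-HC with Cnp and not with Mag.

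**Figure D5:**
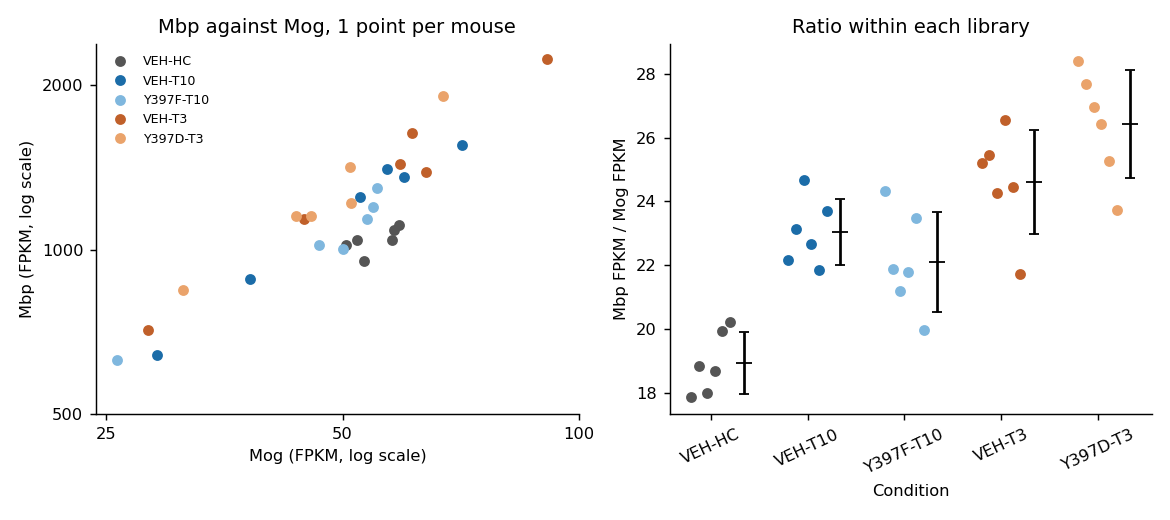
Mbp against Mog in FPKM on log axes with 1 point per mouse (left), and the ratio of Mbp to Mog in each library by condition, with points offset by mouse number and bars giving the mean and SD of the 6 mice, on an axis that does not start at 0 (right). The genes follow each other over the whole range, and the 6 home-cage mice lie below the line of the trained mice, with ratios between 17.8 and 20.2.

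The other genes of the lineage, taken from fixed lists, were counted in the same fit. Of the 24 other mature genes, 0 passed without the covariate in any of the 7 comparisons, and their median log2 fold changes were 0.10 in VEH-T3, -0.09 in Y397D-T3, -0.07 in VEH-T10 and -0.17 in Y397F-T10. Their mean had an r of 0.97 with that of the 31 myelin genes. Of 6 other precursor genes, Lhfpl3 alone passed, falling in Y397D-T3 against VEH-HC by 0.36 ± 0.10 on the log2 scale (adjusted p = 0.0331). Of 18 genes of sterol synthesis, the pathway that supplies myelin cholesterol, 1 passed (Hsd17b7, above VEH-HC by 0.21 in VEH-T3 on the log2 scale, adjusted p = 0.0223), and the list mean had an r of 0.01 with the myelin mean. Markers of other cells were set against the myelin level in the same way: the list mean had an r of 0.62 and a rho of 0.22 for 7 microglial markers, 0.57 and 0.21 for 7 astrocyte markers, 0.58 and 0.35 for 5 endothelial markers, 0.26 and 0.36 for 7 choroid plexus markers, 0.57 and 0.56 for 5 thalamic markers and -0.50 and -0.42 for 6 neuronal markers (n = 30). Single markers differed within some lists. Their r ran from -0.38 to 0.66 for astrocyte markers (5 of 7 positive) and from -0.22 to 0.87 for thalamic markers (4 of 5 positive, median 0.17). For neuronal markers it ran from -0.63 to 0.15 (1 of 6 positive). All microglial, endothelial and choroid plexus markers had a positive r. Of these lists, the thalamic marker Slc17a6 passed as lower in VEH-T10, Y397F-T10 and Y397D-T3, the neuronal markers Rbfox3 and Camk2a as higher in Y397D-T3 and the endothelial marker Flt1 as higher in VEH-T3, all against VEH-HC. Their part in the spread of the myelin genes was not tested.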

How the data were processed

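RNA of 30 dCA1 libraries was sequenced as paired reads of 150 bases on NovaSeq and HiSeq instruments, and which library ran on which was not given in the sources used here. According to the submitters' processing notes, reads were aligned to mm10 with TopHat2 2.1.1 and assembled with Cufflinks 2.2.1, and the authors deposited FPKM, which were used as deposited. Each column was taken by its label, and 0 columns were left out. Absolute depth is unknown, so the spread among 6 mice sets the precision.

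Rows with a mean of at least 1 FPKM (13184) entered limma 3.58.1 (R 4.3.3) as log2(FPKM + 1), which draws fold changes of low genes toward 0, with 1 coefficient per condition, a trend and Benjamini-Hochberg adjustment over all rows of a comparison at 0.05. Intervals are 95%. On simulated data for VEH-T10 against VEH-HC over 13184 rows, 79 of 100 genes changed by 0.5 and 96 of 100 changed by 1 (log2) were called, and 10 of 12984 unchanged ones. The changed genes were drawn from all tested rows, with noise independent between rows, so these shares do not apply to the myelin genes. In VEH-T10 the median SD of a myelin gene was 0.39, beside 0.12 over all rows, and its spread was shared within a mouse. Ratios were compared between trained conditions with exact permutation tests, and Mbp and Mog with 100000 permutations (Python 3.11.15, numpy 2.4.6, scipy 1.17.1). Alternatives were a pseudocount of 0.1, no filter, centred library medians, the 12 libraries of a comparison, a replicate block and leaving out each mouse. The covariate, the removal of a trend on transcript length and GC content (GENCODE M21), and Cnp or Mag as the reference of the ratio were added after the values had been seen. Statistics in full were given for Mbp, Mog, the precursor genes, and the genes called or, with none called, the 3 with the smallest p in a comparison. Members and lists were chosen with earlier results of these data known. Covariate calls, Olig2, Sox10, Enpp6, Nkx6-2 and genes beyond this rule were named after their values had been seen.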

Additional observations from a re-analysis of the deposited data

Results flagged for a closer look

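Over all conditions, 185 sets of 6 values were examined, and in 7 a mouse lay apart by a gap that exceeded Dixon's 95% limit for 6 samples. Chance would give about 9.25 such sets over all conditions and mice, a figure that is no measure for 1 mouse. All 7 fell on mouse 1 of Y397F-T10, which lay apart from the other 5 mice of its condition. Its level was 25.8 FPKM for Mog (the others 46.7 to 55.3), 49.5 FPKM for Mobp (83.5 to 102.7), 109 FPKM for Cnp (177 to 206), 74.1 FPKM for Cldn11 (143 to 178), 21.6 FPKM for Opalin (33.0 to 38.1) and 26.0 FPKM for Pllp (40.2 to 48.4). The mean log2(FPKM + 1) of the 31 myelin and mature genes was 4.40 in that mouse and 4.96 to 5.19 in the others. These 7 values share 1 library and are not independent of each other.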

How the results depend on the processing

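In all, 0 of the 35 genes passed in any of the 7 comparisons with a pseudocount of 0.1, without the filter, with library medians centred, with the length and GC trend removed, with the replicate block, and without each mouse in turn (0 to 0 genes). The replicate numbers belong to different mice and share only a number: the correlation of same-numbered mice ran from -0.50 to 0.52 over 42 pairs, and the block left the count of the 35 genes at 0. With the 12 libraries alone, 2 genes passed in Y397D-T3 against VEH-HC (Cspg4 and Trf). With the covariate, counts against VEH-HC were 2 for VEH-T3, 4 for Y397D-T3, 2 for VEH-T10 and 4 for Y397F-T10, with 1 for VEH-T10 against VEH-T3, and with the length and GC trend removed as well 2, 6, 2, 1 and 1 (shares of all rows stand beside these counts above). Bcas1 and Gpr17 in VEH-T10, Trf in VEH-T3, Bcas1 in Y397F-T10, Bcas1, Mbp, Mobp and Trf in Y397D-T3, and Gpr17 in VEH-T10 against VEH-T3 passed in both covariate fits. Pllp in VEH-T3 and Gal3st1, Mag and Gpr17 in Y397F-T10 passed only in the first, and Cldn11 in VEH-T3 (-0.20) and Hapln2 (0.34) and Ppp1r14a (0.31) in Y397D-T3 only in the second. The sign of the log2 fold change differed from the first fit for 84 of 245 values with the covariate, 27 with the length and GC trend removed and 13 with centred medians, the latter with sizes up to 0.04. The log2 ratio of Mbp to Mog kept its direction in every alternative. Leaving out 1 mouse at a time gave, against VEH-HC, 0.36 to 0.41 for VEH-T3, 0.46 to 0.51 for Y397D-T3, 0.26 to 0.30 for VEH-T10 and 0.19 to 0.25 for Y397F-T10. It gave -0.09 to -0.03 for Y397F-T10 against VEH-T10, 0.067 to 0.133 for Y397D-T3 against VEH-T3, where the exact permutation p was 0.0216 without mouse 6 of Y397D-T3, and -0.130 to -0.072 for VEH-T10 against VEH-T3, where it was 0.0476 without mouse 3 of VEH-T10 and 0.0108 without mouse 6 of VEH-T3. FPKM without read totals gives no counting error, and estimates as large as 0.56 (Gpr17 in VEH-T10) and -0.61 (Trf in Y397D-T3) did not pass with the spread of these genes.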
